A study of Homo sapiens with 6 samples.

Results

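The semaphorins, plexins and neuropilins were followed in 6 RNA-seq libraries of the human lung adenocarcinoma line H1975, an EGFR-mutant line. The members were all genes of the deposited series table whose symbol begins with SEMA or PLXN followed by a letter or digit, with NRP1 and NRP2 added, which gave 30 of 20356 genes: 19 semaphorins, 9 plexins and 2 neuropilins. The 3 libraries of H1975 OR came from osimertinib-resistant cells cultured with 1 µM osimertinib, an inhibitor of mutant EGFR. The 3 reference libraries came from parental H1975 cells grown without the drug in the same medium with serum. Resistance and drug exposure went together, so they cannot be told apart, and H1975 OR is a single resistant derivative. Of the 30 members, 23 averaged at least 1 FPKM (fragments per kilobase, scaled to the sequencing depth of the library) in either group and were tested.

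Semaphorins are secreted or membrane-bound guidance cues, first known for steering axons and now also studied in vessels, immune cells and carcinomas. Plexins are their signalling receptors, whose cytoplasmic part acts on small GTPases of the Ras and Rap type, with effects on adhesion and the actin cytoskeleton. Most class 3 semaphorins, the secreted class of vertebrates, bind a neuropilin that pairs with a plexin, whereas the membrane-bound classes 4 to 7 bind plexins directly. Neuropilins also bind vascular endothelial growth factors.

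The family changed in composition. NRP1 rose and NRP2 fell. The secreted ligand gene SEMA3F rose 9.38-fold in mean FPKM, while SEMA7A, SEMA4B and SEMA4C fell. The plexin genes with the highest levels moved little, and PLXND1 was the plexin gene with the largest rise among those tested. Of the 23 tested members 9 rose and 12 fell past a false discovery rate (FDR) of 0.05, or 91.3% of them (limma, two-sided, Benjamini-Hochberg adjustment over the 12107 genes tested). Over all tested genes 78.0% passed, 39.9% higher and 38.1% lower. Each log2 change given is the mean log2(FPKM + 1) of H1975 OR less that of parental H1975. Its size was 1 or more for 3 members that rose and 6 that fell, or 39.1% of the 23. Over all tested genes this share was 19.3%, with 9.95% higher and 9.39% lower. Of the 23, 7 passed the level filter through 1 group only: SEMA3E, SEMA4D, SEMA5B, SEMA6C, SEMA7A, PLXNB1 and PLXNC1. For these the filter fixed the direction of the difference in mean FPKM. SEMA3E, SEMA5B and SEMA7A are also among the falls of 1 or more. Of the 16 with at least 1 FPKM in both groups, 13 passed, 6 higher and 7 lower (81.2%, against 75.9% of all genes under that filter). The groups did not overlap for 21 of the 23 members, against 79.8% of all tested genes.

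**Figure D1:**
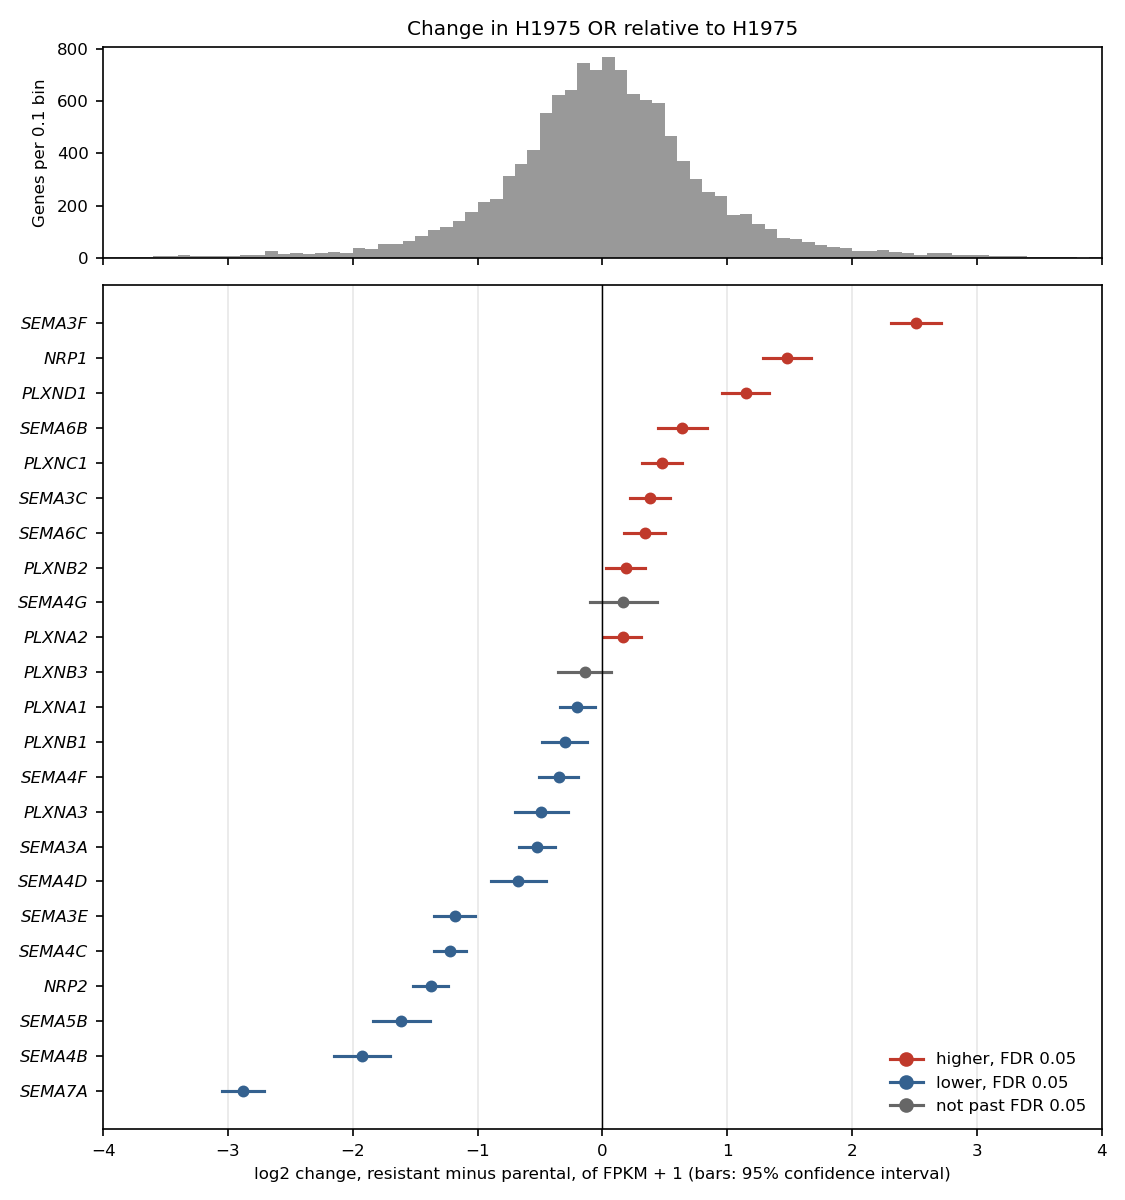
Lower panel: log2 change of FPKM + 1, resistant minus parental, for the 23 tested members (points) with 95% confidence intervals from limma (bars), coloured by call. Upper panel: the same quantity for all tested genes in bins of 0.1, with 76 genes beyond 4 not drawn. The members run from -2.88 for SEMA7A to 2.51 for SEMA3F, and the intervals of SEMA4G and PLXNB3 cross 0.

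Depth in reads is unknown, since the files hold no counts. The mapped sequence, estimated from the highest deposited coverage per FPKM, was 9.72 to 11.5 gigabases in the H1975 OR libraries and 10.8 to 14.7 gigabases in the parental ones. Rank correlations over tested genes were 0.995 to 0.996 within a group and 0.846 to 0.854 between groups. All 8 epithelial markers checked against the label of the line were lower in H1975 OR. Among them KRT8, with the smallest change, averaged 384 FPKM in H1975 OR and 508 FPKM in parental cells. EPCAM averaged 1.02 FPKM in H1975 OR and 211 FPKM in parental cells, and KRT19 4.58 and 574 FPKM. CDH1 averaged 0.0248 FPKM in H1975 OR and 68.6 FPKM in parental cells. NKX2-1 was listed at 0 in each H1975 OR library and at 27.9, 28.7 and 23.6 FPKM in the parental ones. CDH1 and NKX2-1 passed the level filter through the parental group only. Summed markers of other cell types differed as well. The 7 fibroblast markers summed to 18.0 to 21.9 FPKM in H1975 OR and 2.40 to 2.97 in parental libraries, with DCN at 0 in both. The 6 endothelial markers found summed to 1.13 to 1.46 FPKM in H1975 OR and 0.496 to 0.651 in parental libraries, with EMCN at 0. The 7 leukocyte markers summed to 70.4 to 80.3 FPKM in H1975 OR and 24.1 to 27.6 in parental libraries, carried by CD14 and CD68, with CD3E and TYROBP at 0. The neural and glial markers summed to 14.5 to 16.3 FPKM in H1975 OR and 189 to 204 in parental libraries. This sum was carried by TUBB3, counted on both of its rows, with S100B and STMN2 at 0. GFAP went the other way, at 1.81 FPKM in H1975 OR and 0.777 FPKM in parental cells. The part of all these markers in the results on semaphorins was not tested. In bulk RNA, fewer cells with a transcript and less of it per cell cannot be told apart.

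The neuropilins moved in opposite directions. NRP1, the co-receptor of SEMA3A and of VEGFA (10:33466420-33625190, GRCh37, as are all positions given for expression values), had 66.3, 75.4 and 65.8 FPKM in H1975 OR replicates 1 to 3, against 22.5, 27.8 and 22.5 FPKM in parental replicates 1 to 3. Every H1975 OR library lay above every parental one, with a log2 change of 1.48 ± 0.0872 (SE, adjusted p = 1.38e-08). By mean FPKM it was the highest of the 30 members in H1975 OR, and stood at rank 4 in parental cells. NRP2, which prefers SEMA3F and VEGFC (2:206546714-206662857), had 5.81, 6.27 and 5.86 FPKM in H1975 OR libraries, against 17.5, 17.9 and 16.0 FPKM in parental libraries. All 3 H1975 OR libraries were below the parental ones (log2 change -1.38 ± 0.0650 SE, adjusted p = 1.06e-09). NRP1 thus made up 92.0% ± 0.264 of the neuropilin FPKM in H1975 OR and 58.5% ± 2.28 in parental cells (SD, n = 3 each; two-sided exact permutation p = 0.1, the smallest that 3 against 3 allows). The sum of both genes was 75.1 ± 5.66 FPKM in H1975 OR and 41.4 ± 3.76 FPKM in parental cells. A row with a clone name, AC007362.1, overlaps NRP2 on the same strand and averaged 0.958 FPKM in H1975 OR and 3.76 FPKM in parental cells, so reads could be shared between them.

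NRP1 lies in a stretch of chromosome 10 whose genes were mostly higher in H1975 OR. Of 9 other tested genes that start within 2 Mb of it, 9 rose, with log2 changes of 1.03 to 4.48 and a median of 2.27. Over all tested genes 39.9% rose. The change of NRP1 was smaller than that of 8 of the 9. Its neighbour ITGB1, the integrin beta-1 subunit, starts 0.28 Mb away and had a log2 change of 2.61 ± 0.0615 (adjusted p = 1.97e-12). The transcription factor gene ZEB1, whose product represses epithelial genes, starts 1.86 Mb away and had the largest of these changes at 4.48. ZEB1 and CCDC7, the gene with the smallest change, passed the level filter through H1975 OR only, which fixed their directions. Within 10 Mb 35 of 40 other tested genes rose and 3 fell, with a median of 1.85, against a median of 0.06 over 469 other tested genes of the whole chromosome. Among the rises within 10 Mb, those of MKX, ARMC4, BAMBI, ZNF438 and LINC00999 were likewise fixed in direction by the filter. SEMA4G, on the long arm of the same chromosome (10:102729275-102745628), had 0.962, 1.18 and 1.72 FPKM in H1975 OR and 1.11, 0.794 and 1.16 FPKM in parental cells, and the groups overlapped (log2 change 0.17, 95% interval -0.10 to 0.43, adjusted p = 0.217). The change was 0.04 without H1975 OR replicate 3, 0.08 without parental replicate 2 and 0.27 without H1975 OR replicate 1, and it did not pass in any of the 6 fits without 1 library.

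**Figure D2:**
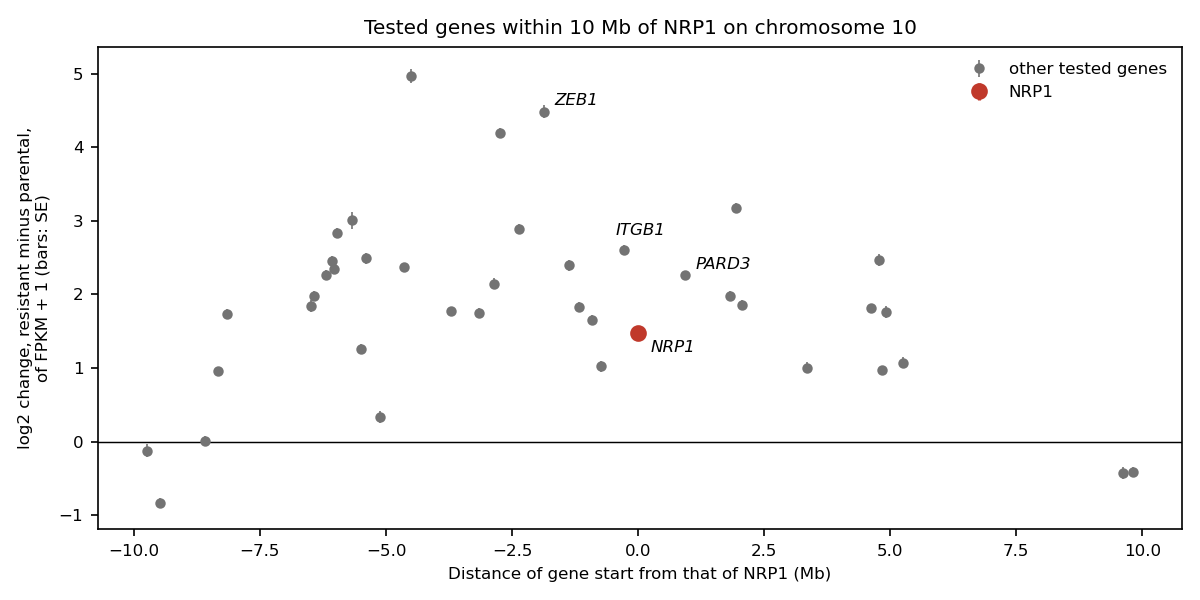
Log2 change of FPKM + 1, resistant minus parental, with SE (vertical axis), of each tested gene against the distance in Mb of its start from that of NRP1 on chromosome 10 (horizontal axis). NRP1, at 1.48, sits below ITGB1, PARD3 and ZEB1, and genes near either end of the window are close to or below 0.

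Among the class 3 semaphorins, 4 of 6 were tested, and 2 rose and 2 fell, beside the 78.0% of all tested genes that passed. Of these, SEMA3E passed the level filter through the parental group only. SEMA3F, a secreted ligand that acts mainly through NRP2 (3:50192478-50226508), had 10.4, 12.6 and 13.6 FPKM in H1975 OR, against 1.23, 1.23 and 1.45 FPKM in parental cells. This was the largest rise among tested members (log2 change 2.51 ± 0.0917 SE, adjusted p = 1.18e-10), and the groups were far apart. SEMA3C (7:80371854-80551675), a ligand of both neuropilins, was the most abundant semaphorin gene in H1975 OR, at 36.8, 39.5 and 41.1 FPKM, against 29.4, 27.5 and 32.8 FPKM in parental libraries. Its rise was small (log2 change 0.38 ± 0.0736 SE, adjusted p = 0.000421), without overlap between groups. SEMA3A, the classical repellent of axons that binds NRP1 (7:83585093-84122040), had 2.76, 2.60 and 2.72 FPKM in H1975 OR and 4.29, 4.41 and 4.23 FPKM in parental cells, a fall of 0.52 on the log2 scale (adjusted p = 1.06e-05). SEMA3E, which binds PLXND1 without a neuropilin (7:82993222-83278326), was low in H1975 OR, at 0.0543, 0.0240 and 0.0589 FPKM, against 1.46, 1.49 and 1.19 FPKM in parental cells (log2 change -1.18 ± 0.0742 SE, adjusted p = 1.49e-08). SEMA3D and SEMA3G stayed below 0.15 FPKM in every library and were not tested.

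SEMA3C, SEMA3E, SEMA3A and SEMA3D lie together on chromosome 7, with 4.25 Mb between the starts of SEMA3C and SEMA3D. Within this stretch SEMA3C rose while SEMA3E, 2.62 Mb from it, and SEMA3A, a further 0.59 Mb away, fell. The median log2 change of the 568 tested genes of chromosome 7 was -0.55. The sum of the 6 class 3 members was 54.2 ± 3.82 FPKM in H1975 OR and 37.0 ± 2.53 FPKM in parental cells, and SEMA3F made up 22.5% of it in H1975 OR and 3.52% in parental cells. The class 3 gene SEMA3B is outside the series table and was read from the library files, at 12.7 ± 1.73 FPKM in H1975 OR and 17.2 ± 3.77 FPKM in parental cells with overlapping groups. With it, a sum computed after its values were seen, class 3 reached 66.9 ± 5.05 FPKM in H1975 OR and 54.2 ± 6.29 FPKM in parental cells, and the SEMA3F share was 18.2% in H1975 OR and 2.41% in parental cells.

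Promoter windows from RefSeq (GRCh38.p14, 250 bases before to 50 after a start) were matched by symbol for 26 of the 30 members, all but SEMA3A, SEMA6A, SEMA6B and NRP1. They were searched for CAGGTG on both strands (CACCTG on the other strand), the E-box to which ZEB and SNAI factors bind, since ZEB1 is among the risen neighbours of NRP1. These letters were present for 6 of the 26 members, or 23.1%, against 24.1% of 27305 genes. For SEMA3F, windows at other starts did not hold them. The stretches of SEMA3F, the member with the largest rise, and SEMA4F, which fell, are shown with the letters in capitals, 137 and 136 bases before a start. Both are on the plus strand, at chr3:50154901-50154946 and chr2:74654091-74654136.
SEMA3F: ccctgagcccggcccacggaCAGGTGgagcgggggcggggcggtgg
SEMA4F: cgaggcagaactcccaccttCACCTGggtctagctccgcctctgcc
Of the other members with a window, PLXNB1, which fell, PLXNB3, SEMA3G and SEMA4A held the letters. The remaining ones, both higher and lower members, did not. Whether ZEB or SNAI factors bind or act on these genes was not tested.

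**Figure D3:**
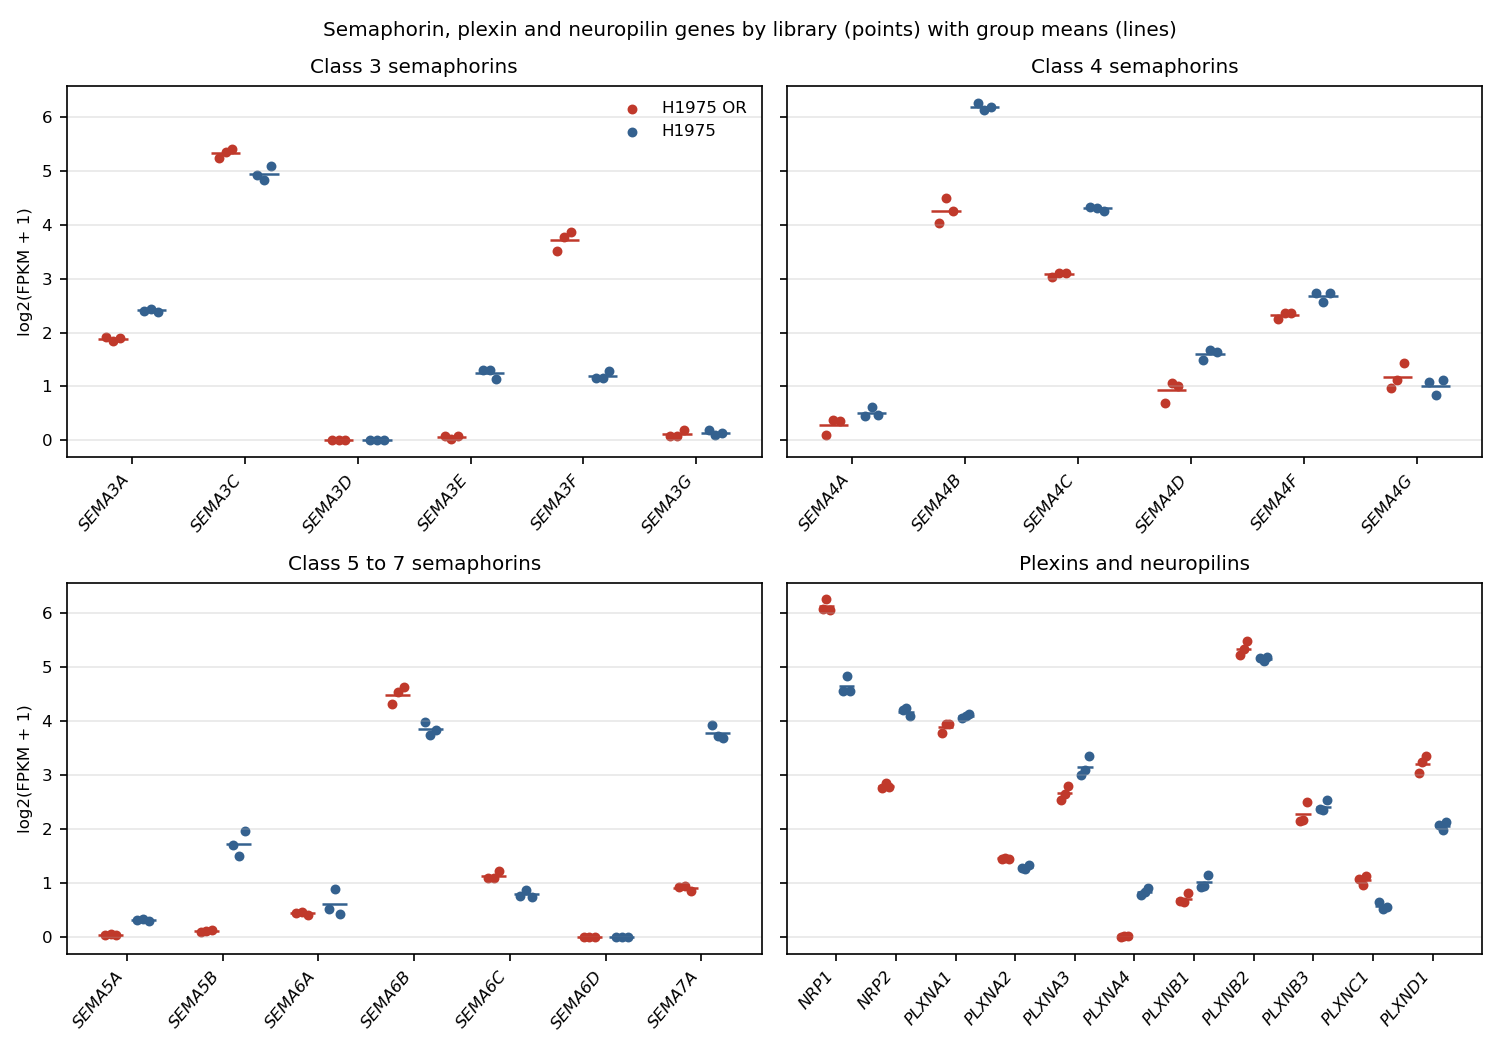
Levels as log2(FPKM + 1) of all 30 members in each library (points, H1975 OR left of parental H1975 for each gene) with group means (lines), in panels by class. SEMA4B and SEMA7A stand lower and SEMA3F and NRP1 higher in all 3 H1975 OR libraries than in any parental one, and the untested members lie near the bottom of each panel.

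Class 4 semaphorins, transmembrane ligands of B and D plexins among others, were the main semaphorin class of parental cells. They summed to 32.1 ± 3.95 FPKM in H1975 OR, against 99.3 ± 3.40 FPKM in parental cells, or 29.0% of the summed FPKM of the semaphorin members in H1975 OR and 59.7% in parental cells. Of 5 tested members 4 fell and 0 rose, beside the 78.0% of all tested genes that passed and the 38.1% that were lower. SEMA4G was the one that did not pass. SEMA4D passed the level filter through the parental group only, which fixed its direction. SEMA4B (15:90703836-90772911) was the most abundant member of the whole family in parental cells. It had 15.3, 21.4 and 18.0 FPKM in H1975 OR, against 75.1, 69.1 and 71.0 FPKM in parental cells (log2 change -1.93 ± 0.101 SE, adjusted p = 1.77e-08). The mean was 3.93 times lower in H1975 OR, and no library came near those of the other group. SEMA4C, a ligand of PLXNB2 (2:97525453-97536494), had 7.17, 7.59 and 7.56 FPKM in H1975 OR, against 19.1, 18.9 and 18.1 FPKM in parental cells (log2 change -1.22 ± 0.0590 SE, adjusted p = 1.30e-09). SEMA4D, the ligand of PLXNB1, averaged 0.913 ± 0.259 FPKM in H1975 OR and 2.04 ± 0.199 FPKM in parental cells and fell by 0.67 on the log2 scale (adjusted p = 5.50e-05). SEMA4F averaged 4.01 ± 0.202 FPKM in H1975 OR and 5.40 ± 0.397 FPKM in parental cells (log2 change -0.35, adjusted p = 0.00064). SEMA4A was below 0.6 FPKM in all 6 libraries and was not tested. SEMA4G is overlapped on the other strand by MRPL43, at 48.1 FPKM in H1975 OR and 51.3 FPKM in parental cells, and since strand use in the counting is not given in the sources used here, its low level is uncertain.

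SEMA7A, the only semaphorin tethered by a lipid anchor, signals through integrin beta-1 and PLXNC1 (15:74701630-74726808). It had 0.904, 0.927 and 0.798 FPKM in H1975 OR libraries, against 14.3, 12.3 and 11.9 FPKM in parental libraries. The log2 change was -2.88 ± 0.0785 (SE, adjusted p = 6.94e-12), the lowest among tested members on the log2(FPKM + 1) scale. As a ratio of mean FPKM it was 14.6 times lower, against 30.1 times for SEMA3E and 29.1 times for SEMA5B, both of them low genes. With a pseudocount of 0.1 SEMA5B (-3.732) and SEMA7A (-3.725) were nearly level on the log2 scale. The receptor genes of SEMA7A went the other way: PLXNC1 (12:94542499-94701451) had 1.10, 0.951 and 1.18 FPKM in H1975 OR and 0.569, 0.426 and 0.476 FPKM in parental cells (log2 change 0.48 ± 0.0748 SE, adjusted p = 7.41e-05). PLXNC1 shares its span with CCDC41 on the other strand, at 3.28 FPKM in H1975 OR and 3.50 FPKM in parental cells, so some of its reads could belong to that gene. The integrin alpha-1 gene ITGA1, whose product pairs with beta-1, had 6.61, 6.34 and 6.71 FPKM in H1975 OR and 0.200, 0.158 and 0.218 FPKM in parental cells (log2 change 2.66 ± 0.0684 SE, adjusted p = 4.15e-12). SEMA7A, PLXNC1 and ITGA1 each passed the level filter through 1 group only, which fixed their directions.

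Of the class 5 semaphorins, which carry thrombospondin repeats, SEMA5B was tested (3:122628041-122747452). It had 0.0637, 0.0785 and 0.0978 FPKM in H1975 OR, against 2.24, 1.83 and 2.91 FPKM in parental cells (log2 change -1.61 ± 0.103 SE, adjusted p = 2.89e-08). SEMA5A, below the filter, averaged 0.0315 ± 0.00719 FPKM in H1975 OR and 0.240 ± 0.0171 FPKM in parental cells. Class 6, transmembrane ligands of A plexins, had 2 tested members and both rose, beside the 78.0% of all tested genes that passed. SEMA6C passed the level filter through H1975 OR only, which fixed its direction. SEMA6B (19:4542600-4559820) had 18.8, 22.2 and 23.9 FPKM in H1975 OR, against 14.9, 12.4 and 13.2 FPKM in parental cells (log2 change 0.64 ± 0.0895 SE, adjusted p = 3.94e-05). The groups did not overlap, and SEMA6B ranked the fourth of the 30 members in H1975 OR. SEMA6C averaged 1.2 ± 0.122 FPKM in H1975 OR and 0.738 ± 0.0853 FPKM in parental cells (log2 change 0.34, adjusted p = 0.00114). SEMA6A averaged 0.354 ± 0.0236 FPKM in H1975 OR and 0.540 ± 0.268 FPKM in parental cells with overlapping groups and was not tested. SEMA6D was listed at 0 in 5 libraries and at 0.000262 FPKM in H1975 OR replicate 1.

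The 19 semaphorin members summed to 111 ± 9.69 FPKM in H1975 OR, against 166 ± 6.44 FPKM in parental cells. Class 3 took 49.1% of this sum in H1975 OR and 22.2% in parental cells, and class 6 took 20.9% in H1975 OR and 8.88% in parental cells. With SEMA3B added, the sum was 123 ± 10.4 FPKM in H1975 OR and 184 ± 8.52 FPKM in parental cells, and the class 3 share was 54.4% in H1975 OR and 29.5% in parental cells. In summed FPKM, with or without SEMA3B, class 3 exceeded class 4 in H1975 OR, and class 4 exceeded class 3 in parental cells.

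**Figure D4:**
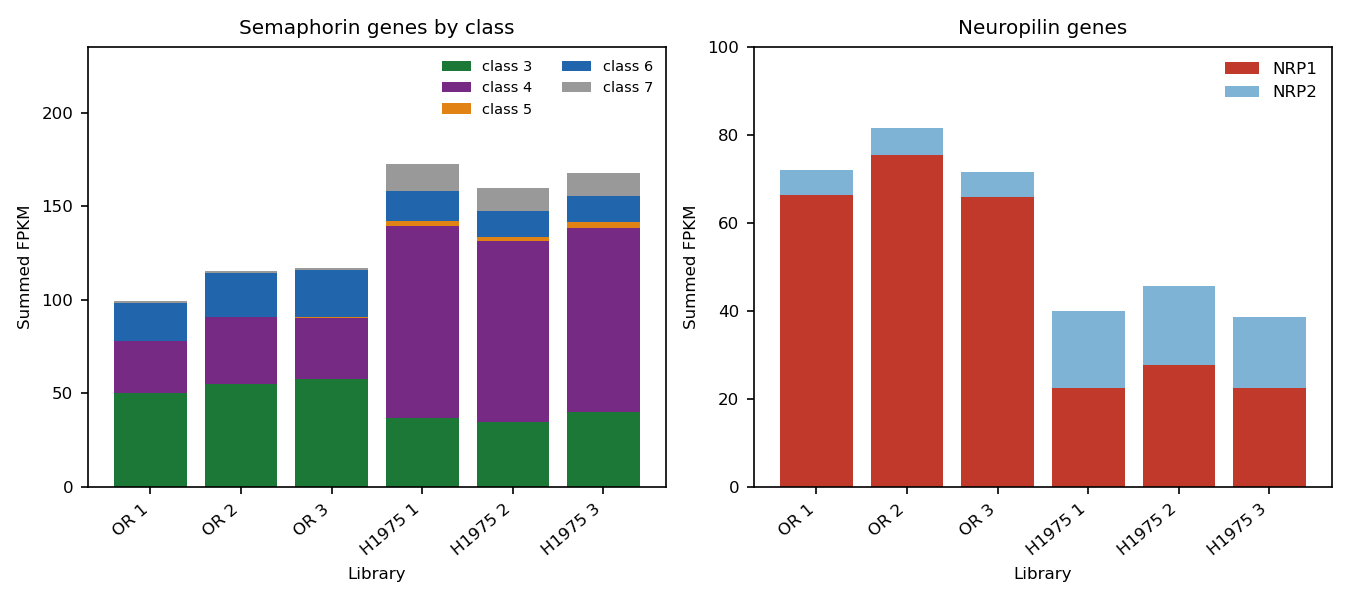
Summed FPKM (vertical axis) of semaphorin genes of the series table stacked by class and of the neuropilin genes in each library, H1975 OR replicates 1 to 3 (OR 1 to 3) left of parental replicates 1 to 3. The class 4 segment is 27.9 to 35.7 FPKM in H1975 OR and 96.4 to 103 in parental libraries, and NRP1 fills most of the neuropilin bars of H1975 OR.

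The summed plexin levels overlapped between the groups, at 74.7 ± 6.85 FPKM in H1975 OR and 70.1 ± 3.08 FPKM in parental cells (two-sided exact permutation p = 0.3, against a smallest possible p of 0.1). Of 8 tested plexins 4 rose and 3 fell, or 87.5%, beside the 78.0% of all tested genes, and the calls of PLXNA2 and PLXNB2 among the rises were lost in most fits without 1 library. PLXND1, the receptor of SEMA3E (3:129274018-129325661), had 7.21, 8.45 and 9.26 FPKM in H1975 OR, against 3.23, 2.94 and 3.40 FPKM in parental cells. It was the only plexin past a log2 change of 1 (1.15 ± 0.0859 SE, adjusted p = 7.97e-08), so that the receptor gene was higher and the gene of its ligand SEMA3E lower. PLXNB2 (22:50713408-50746056), a receptor of class 4 semaphorins, was the most abundant plexin in both groups, at 36.4, 39.2 and 43.8 FPKM in H1975 OR and 35.0, 33.7 and 35.5 FPKM in parental cells. The groups did not overlap but lay close together (log2 change 0.19 ± 0.0714 SE, adjusted p = 0.0302). PLXNA1 (3:126707437-126756235), a partner of neuropilins, was the most abundant A plexin, with 12.8, 14.5 and 14.4 FPKM in H1975 OR and 15.6, 16.1 and 16.6 FPKM in parental cells (log2 change -0.20 ± 0.0654 SE, adjusted p = 0.0138). These were small differences beside those of NRP1 and NRP2.

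PLXNA3 averaged 5.35 ± 0.598 FPKM in H1975 OR and 7.94 ± 1.13 FPKM in parental cells (log2 change -0.49, adjusted p = 0.000597), and PLXNA2 averaged 1.74 ± 0.0295 FPKM in H1975 OR and 1.45 ± 0.0657 FPKM in parental cells (log2 change 0.16, adjusted p = 0.0417). PLXNB1, the receptor of SEMA4D, averaged 0.638 ± 0.101 FPKM in H1975 OR and 1.02 ± 0.178 FPKM in parental cells (log2 change -0.30, adjusted p = 0.00522). PLXNB3, a receptor of SEMA5A that starts 0.66 Mb from PLXNA3 on chromosome X, had 3.44, 3.51 and 4.67 FPKM in H1975 OR and 4.18, 4.10 and 4.78 FPKM in parental cells and did not pass (log2 change -0.14, 95% interval -0.36 to 0.07, adjusted p = 0.20). U52111.14 overlaps PLXNB3 on the other strand at 1.87 FPKM in H1975 OR and 3.09 FPKM in parental cells, so reads could be shared between them. The calls of the plexins with small changes lay near the threshold when single libraries were left out. PLXNA2 passed in 1 of 6 such fits, with log2 changes of 0.15 to 0.19, and did not pass without parental replicate 1 (adjusted p = 0.122) or 2 (0.0977) or without H1975 OR replicate 1 (0.0581), 2 (0.0955) or 3 (0.069). PLXNB2 passed in 2 of 6, with log2 changes of 0.12 to 0.25, and did not pass without parental replicate 1 (adjusted p = 0.0602) or 2 (0.096) or without H1975 OR replicate 2 (0.0515) or 3 (0.16), the last with the smallest change. PLXNA1 did not pass without H1975 OR replicate 1 (log2 change -0.15, adjusted p = 0.0561). PLXNB3 passed without H1975 OR replicate 3 (log2 change -0.26, adjusted p = 0.012), and its changes ran from -0.26 to -0.08 over the 6 fits. PLXNA4 stayed below the filter but separated widely, at 0.005, 0.00763 and 0.00697 FPKM in H1975 OR, against 0.725, 0.791 and 0.867 FPKM in parental cells.

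The other genes of the pathway were taken from 3 lists of 73 genes in all, of which 53 were tested. Of these, 25 rose and 19 fell, or 83%, beside the 78.0% of all tested genes. With at least 1 FPKM required in both groups, 23 rose and 16 fell, and 75.9% of all genes passed under that filter. Among binding partners and co-receptors 8 of 13 tested rose and 4 fell, or 92.3%. VEGFA, the growth factor that binds NRP1, had 99.0, 92.7 and 110 FPKM in H1975 OR, against 47.4, 43.1 and 45.6 FPKM in parental cells (log2 change 1.13 ± 0.0731 SE, adjusted p = 2.00e-08). Its signalling receptor gene KDR was below 0.3 FPKM in all 6 libraries and was not tested, and VEGFC, the NRP2 ligand, averaged under 0.005 FPKM in both groups. ITGB1 averaged 712 ± 21.8 FPKM in H1975 OR and 116 ± 3.57 FPKM in parental cells. LRP1, a large endocytic receptor, averaged 25.3 ± 3.55 FPKM in H1975 OR and 4.57 ± 0.698 FPKM in parental cells (log2 change 2.24, adjusted p = 3.38e-08). The receptor kinases that associate with B plexins were lower: MST1R by a log2 change of -1.69 (adjusted p = 2.20e-10), MET by -1.01 (adjusted p = 1.51e-08) and ERBB2 by -0.66 (adjusted p = 5.68e-07). PTK7, a pseudokinase receptor, fell by 1.11 on the log2 scale (adjusted p = 6.51e-08).

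Among intracellular transducers 12 of 34 tested rose and 14 fell, or 76.5%, close to the 78.0% of all tested genes. The collapsin response mediators, named for their part in the growth cone response to SEMA3A, included DPYSL3, with 9.56, 9.98 and 10.1 FPKM in H1975 OR and 1.64, 1.66 and 1.88 FPKM in parental cells (log2 change 2.0 ± 0.0673 SE, adjusted p = 4.96e-11). DPYSL2 averaged 24.4 ± 1.2 FPKM in H1975 OR and 5.93 ± 0.125 FPKM in parental cells (log2 change 1.87, adjusted p = 3.55e-11). Of the same family, CRMP1 rose by 0.58 on the log2 scale (adjusted p = 9.06e-06). It passed the level filter through H1975 OR only, which fixed its direction. DPYSL4 did not pass (log2 change -0.05, adjusted p = 0.53), and DPYSL5 was at 0 in every library. FYN, a Src-family kinase of the same response, averaged 19.9 ± 0.641 FPKM in H1975 OR and 3.13 ± 0.553 FPKM in parental cells (log2 change 2.35, adjusted p = 2.12e-10). R-Ras type GTPases, on which plexins act, were higher. MRAS averaged 17.8 ± 1.40 FPKM in H1975 OR and 1.41 ± 0.260 FPKM in parental cells (log2 change 2.97, adjusted p = 1.26e-11). RRAS2 had a log2 change of 1.25 (adjusted p = 2.90e-09) and RRAS one of 0.70 (adjusted p = 0.00528). The Rap type genes were not higher: RAP1A fell (log2 change -0.38, adjusted p = 0.00293) and RAP1B did not pass (log2 change -0.01, adjusted p = 0.889). ARHGEF12, a guanine nucleotide exchange factor bound by B plexins, and RANBP9, which binds A plexins, rose by 1.06 (adjusted p = 5.00e-09) and 1.32 (adjusted p = 6.99e-10) on the log2 scale.

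Lower transducers included RHOD, a small GTPase that binds plexins, at 0.496 ± 0.173 FPKM in H1975 OR and 16.4 ± 2.49 FPKM in parental cells (log2 change -3.54, adjusted p = 1.60e-10). RHOD and CDK5R1, another of the lower transducers, passed the level filter through the parental group only, which fixed their directions. LIMK1, the kinase that phosphorylates cofilin, averaged 24 ± 1.94 FPKM in H1975 OR and 80.8 ± 0.651 FPKM in parental cells (log2 change -1.72, adjusted p = 1.92e-10). SH3BP1, a GTPase-activating protein for Rac, fell by 1.09 on the log2 scale (adjusted p = 2.73e-07). The cytoskeletal GTPase RAC1 averaged 197 ± 4.46 FPKM in H1975 OR and 289 ± 21.9 FPKM in parental cells (log2 change -0.55, adjusted p = 9.82e-06), while RHOA, at 274 ± 16.2 FPKM in H1975 OR and 263 ± 12.2 FPKM in parental cells, did not pass (adjusted p = 0.43).

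Of 6 tested proteases that process semaphorins or neuropilins 5 rose and 1 fell, beside the 39.9% higher and 38.1% lower of all tested genes. MMP14, a membrane-anchored metalloproteinase that cuts SEMA4D, had 75.0, 87.8 and 82.6 FPKM in H1975 OR, against 2.60, 2.20 and 3.25 FPKM in parental cells (log2 change 4.50 ± 0.1 SE, adjusted p = 1.81e-11). FURIN, the convertase that cleaves class 3 semaphorins, averaged 23.6 ± 2.74 FPKM in H1975 OR and 18.8 ± 0.993 FPKM in parental cells (log2 change 0.31, adjusted p = 0.00348). Another convertase gene, PCSK5, averaged 0.0171 ± 0.00834 FPKM in H1975 OR and 2.31 ± 0.108 FPKM in parental cells (log2 change -1.70, adjusted p = 2.27e-10). PCSK5, the only protease gene that fell, passed the level filter through the parental group only, which fixed its direction.

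**Figure D5:**
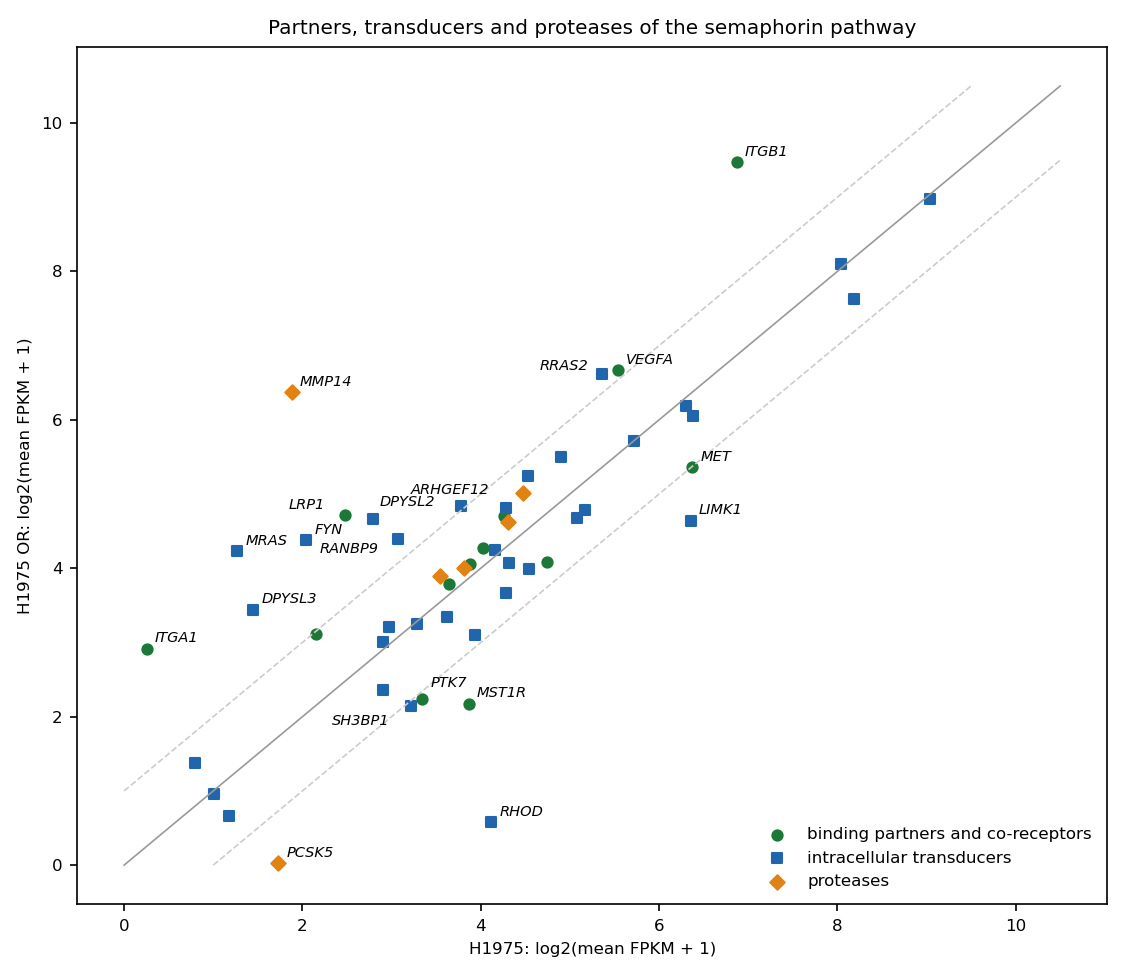
Mean level as log2(mean FPKM + 1) in H1975 OR (vertical axis) against parental H1975 (horizontal axis) for the 53 tested pathway genes, by list; the solid line marks equal levels and the dashed lines a difference of 1 on this scale. MMP14, MRAS and ITGA1 lie far above the band and RHOD, LIMK1 and PCSK5 below it.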

How the data were processed

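RNA was extracted with Trizol and libraries were made with an mRNA kit, per the labels' protocols. The submitters' processing notes name the build GRCh37, and DESeq without a role or version. Neither the aligner nor the annotation or the use of strand is given in the sources used here. The authors deposited FPKM in a series table, and FPKM, TPM and mean coverage (a signal per base) in a file per library, per the file headers. For the 30 members the table and the library files were compared and differed by 0 FPKM.

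The test was that of limma 3.58.1 in R 4.3.3, two-sided, applied to log2 of FPKM plus 1 for genes that averaged 1 FPKM or more in a group. The model held the group alone, moderation was robust with an intensity trend, and p-values were adjusted by Benjamini-Hochberg across every tested gene. These fold changes understate those of low genes. With no counts, no counting interval was possible. The code was tested on simulated data. Alternatives were another pseudocount, no or a stricter filter, TPM, median-of-ratios scaling, plain moderation, a replicate block and leaving out each library. An exact permutation test was used for summed values. Values in every library were given, by rule, for members past 0.05 with a log2 change of at least 1, the neuropilins and the highest member of each class. Others were chosen after their values were seen. Pathway genes were named past the same thresholds, with 9 named whatever their values. VEGFC, CRMP1, CDK5R1, DPYSL4, DPYSL5, RAP1A and RAP1B were added after their values were seen. The members, lists and tests were chosen with earlier results of these data known.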

Additional observations from a re-analysis of the deposited data

How the results depend on the processing

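Across 13 alternatives the number of members that rose was 6 to 9 and the number that fell 7 to 14, against 9 and 12 as reported. The fall to 7 came when at least 1 FPKM was required in both groups, which removes genes that are low in one group by construction. Leaving out each library in turn gave 7 to 9 members higher and 11 to 13 lower, 8982 to 9255 genes of all passing, and 23 to 25 pathway genes higher with 19 lower. Of the 23 tested members, 19 kept their call and direction in every alternative in which they were tested, and 0 reversed. PLXNA2 also lost its call with a pseudocount of 0.1 (adjusted p = 0.0554), with the stricter filter (0.0612) and with median-of-ratios scaling (0.0552), and PLXNB2 with no filter (0.0647); the cause was not tested. With no filter, the untested PLXNA4 (adjusted p = 5.49e-06) and SEMA5A (adjusted p = 1.93e-05) passed as lower. Deviations of same-numbered libraries from their group means correlated at -0.14, 0.08 and 0.10, and those of other pairs at -0.16 to 0.08. With 3 libraries a group, so few values cannot decide whether the same replicate numbers mark paired samples. A replicate block left 8 members higher, 12 lower and 9422 genes past 0.05, and PLXNA2 lost its call (adjusted p = 0.072). Adding SEMA3B to the sums, a choice made after the data were seen, moved the class 3 sum to 66.9 FPKM in H1975 OR and 54.2 FPKM in parental cells, and the semaphorin sum to 123 FPKM in H1975 OR and 184 FPKM in parental cells. Precision is limited by 3 libraries a group and by the unknown depth, above all for members under 1 FPKM.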

Other observations

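SEMA3B is a class 3 semaphorin gene near SEMA3F on chromosome 3 (3:50304990-50314977, GRCh37). In the library files it had 12.2, 11.3 and 14.6 FPKM in H1975 OR replicates 1 to 3, against 15.9, 14.2 and 21.4 FPKM in parental replicates 1 to 3, with overlapping groups. At these levels it stood beside SEMA3F in H1975 OR, which averaged 12.2 FPKM, while in parental cells SEMA3F averaged 1.30 FPKM. The antisense row SEMA3B-AS1, also read from the library files, averaged 0.0927 ± 0.0321 FPKM in H1975 OR and 0.111 ± 0.0230 FPKM in parental cells (SD, n = 3 each). No test was run on either.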
